A study of Homo sapiens with 6 samples.

Results

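Moesin, ezrin, radixin and merlin, encoded by MSN, EZR, RDX and NF2, are 4 of the 58735 genes in the FPKM table of a study of the long non-coding RNA LOC101927668. They were followed to see how far the 3 relatives made up for the fall in MSN. MSN was chosen by its lower level in the comparison described here, and the other 3 were chosen as its relatives with that result known, so the levels of all 4 are given as a description with no test. FPKM is the number of fragments scaled by exon length and by library size. It is meant to allow levels to be compared between genes and between libraries. Small differences between these libraries depended on the scaling, as described below. MSN, EZR and NF2 passed the filter on low values, which kept a gene with 3 or more libraries at 0.5 FPKM or above, and RDX did not.

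The libraries came from RKO, an established human colorectal carcinoma line, cultured in serum-containing medium. One group of 3 libraries, called Vector here, is labelled as negative control, and the other group of 3, called LOC_OE, overexpressed LOC101927668. Per the study's methods, stable lines were made with a lentiviral plasmid and selected with puromycin. Whether each line was a pool or a single clone is not given in the sources used here, and neither is whether the replicates of a group were grown as separate cultures, so p-values measure the spread between these libraries.

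Ezrin, radixin and moesin, together the ERM proteins, tie the plasma membrane to the cortical actin under it. An N-terminal FERM domain binds membrane proteins and phosphoinositides, and a C-terminal tail binds filamentous actin. In the closed form the tail masks the FERM domain, and the protein opens after binding phosphatidylinositol 4,5-bisphosphate and phosphorylation of a conserved threonine in the tail. Epithelial cells are known for ezrin in their microvilli, and leukocytes and endothelium for moesin. Merlin shares the FERM domain but lacks the ERM type of actin-binding tail. It is a tumour suppressor that acts upstream of the Hippo kinases, which restrain the coactivators YAP and TAZ.

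The part of the ERM proteins that binds actin is encoded at the end of each coding sequence, and these bases show how closely the 4 transcripts resemble each other there. Below are the last 78 coding bases before the stop codon, from GENCODE 29 transcripts on GRCh38. Capitals mark bases of EZR and RDX that differ from MSN. MSN was taken from ENST00000360270, exon 13 of 13, chrX:65739813-65739890, plus strand. EZR was taken from ENST00000367075, exon 14 of 14, chr6:158766917-158766994, minus strand. RDX was taken from ENST00000343115, exon 14 of 14, chr11:110231872-110231949, minus strand. NF2 was taken from ENST00000338641, exons 15 and 16 of 16, between 29681572 and 29694799 on the plus strand of chromosome 22, and is printed in lower case throughout because it differs from MSN at 40 of the 78 bases.
MSN: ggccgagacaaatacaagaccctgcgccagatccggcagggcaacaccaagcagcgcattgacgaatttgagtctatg
EZR: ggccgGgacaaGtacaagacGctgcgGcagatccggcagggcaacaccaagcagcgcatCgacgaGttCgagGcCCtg
RDX: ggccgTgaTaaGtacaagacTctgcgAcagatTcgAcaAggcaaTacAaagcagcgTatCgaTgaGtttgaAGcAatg
NF2: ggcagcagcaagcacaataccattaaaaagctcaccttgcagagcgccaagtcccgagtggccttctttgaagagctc
EZR differed from MSN at 10 of these bases and RDX at 17. Over the whole coding sequence, aligned pairwise, MSN was 75.9% identical to EZR, 72.4% identical to RDX and 66.3% identical to NF2. The longest run shared by MSN and EZR in that alignment was 32 bases. Of the 150-base windows along the transcripts, 0 of 5821 for MSN, 0 of 3335 for EZR, 0 of 10279 for RDX and 0 of 8508 for NF2 occurred unchanged in a transcript of another gene. A read of that length that matches exactly is therefore particular to its gene, including for MSN against its processed pseudogene MSNP1.

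The 6 libraries held 15008842 to 18410231 reads on genes. These were recovered from FPKM and exon length, and 100% of the values came out whole within 0.02 of a read. LOC101927668 had at most 1 read in any Vector library, whereas LOC_OE 1, 2 and 3 held 231, 270 and 276, as the labels say. LOC_OE 1 stood apart from its group. Across the 16061 genes tested its correlation with LOC_OE 2 and LOC_OE 3 on log2(FPKM + 1) was 0.967 and 0.962, whereas LOC_OE 2 and LOC_OE 3 correlated at 0.982 and the Vector pairs at 0.982 to 0.983. Of the 9 markers of colorectal epithelium, EPCAM, KRT8, KRT18 and CDX2 averaged an FPKM of at least 1, and CDH1, the epithelial cadherin, was listed at 0 in every library. The summed epithelial markers ranged from 39.4 to 41.5 FPKM in Vector and from 48.4 to 89.6 FPKM in LOC_OE. The summed leukocyte markers stayed between 0.811 and 1.23 FPKM in Vector and between 0.223 and 0.713 FPKM in LOC_OE, and the summed fibroblast markers and the summed endothelial markers did not exceed 0.203 and 0.0801 FPKM.

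MSN was by far the most abundant of the 4 transcripts in control cells, and it was the one that fell. MSN (ENSG00000147065, chrX:65588377-65741931, plus strand, GRCh38) had 266, 255 and 254 FPKM in Vector 1, 2 and 3. In LOC_OE 1, 2 and 3 it had 37.0, 54.6 and 45.4 FPKM. The groups lay far apart, and the lowest Vector library was well above the highest LOC_OE library. Means were 258 ± 6.81 FPKM (SD, n = 3) in Vector and 45.7 ± 8.81 FPKM (SD, n = 3) in LOC_OE, so that 17.7% of the control level remained, a log2 fold change of −2.49 ± 0.145 (SE) on log2(FPKM + 1). In bulk RNA, fewer cells that express MSN and less MSN RNA per cell cannot be told apart. The depth behind these values was 28192 to 29807 reads in each Vector library and 3536 to 5228 reads in each LOC_OE library. Ranked by FPKM among the genes tested, MSN stood at 97 to 100 in Vector and at 671 to 1472 in LOC_OE. The transcript was therefore reduced and still present.

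EZR, encoding the ERM protein of epithelial microvilli, was the only relative expressed at a level that approached MSN. EZR (ENSG00000092820, chr6:158765741-158819412, minus strand) had 85.1, 80.3 and 77.8 FPKM in Vector 1, 2 and 3, and 109.5, 82.7 and 80.9 FPKM in LOC_OE 1, 2 and 3. The groups overlapped, and 1 library, LOC_OE 1, lay above all the others. The means were 81.1 ± 3.69 FPKM in Vector and 91.0 ± 16.0 FPKM in LOC_OE (SD, n = 3 each), a log2 fold change of 0.15 ± 0.134 (SE). Without LOC_OE 1 the LOC_OE mean was 81.8 FPKM, 0.698 FPKM above Vector.

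The direction of the small EZR difference depended on how the libraries were scaled. Rescaling all libraries to the same summed FPKM gave a log2 fold change of −0.11, quantile normalization gave −0.15, and the share of reads on genes gave −0.044. EZR took 0.0299%, 0.0292% and 0.0284% of the reads on genes in Vector 1, 2 and 3 and 0.0318%, 0.0266% and 0.0265% in LOC_OE 1, 2 and 3. The library size implied by the FPKM values was 18569332 to 18763335 in Vector, above the reads on genes, and 14692797 to 16036779 in LOC_OE, below the reads on genes of the same library. The median log2 fold change over all genes tested was 0.019 as deposited and −0.18 after rescaling to the same summed FPKM. An increase in EZR was therefore not detectable beyond the spread between libraries and the choice of scale.

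RDX, encoding radixin, was close to the floor of detection in both groups. The Vector 1, 2 and 3 libraries held 2, 1 and 7 reads of RDX (ENSG00000137710, chr11:109864295-110296722, minus strand), and LOC_OE 1, 2 and 3 held 0, 0 and 2. In FPKM these were 0.0125, 0.00632 and 0.0441 in Vector and 0, 0 and 0.0160 in LOC_OE. A count of 0 allows up to 3 reads, equal to 0.0187 to 0.0239 FPKM in these libraries, and this floor covers counting error only. With 10 reads in all in Vector and 2 in LOC_OE, no fold is given. Even at its highest, in Vector 3, RDX made up 0.0133% of the summed FPKM of the ERM genes.

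NF2, encoding merlin, was expressed at a lower level than MSN and EZR in both groups. Ranked by FPKM among the genes tested, it stood at 4853 to 5113 in Vector and at 4267 to 4763 in LOC_OE. NF2 (ENSG00000186575, chr22:29603556-29698598, plus strand) had 9.45, 9.74 and 9.17 FPKM in Vector 1, 2 and 3, and 12.8, 10.4 and 10.2 FPKM in LOC_OE 1, 2 and 3. All LOC_OE libraries lay above all Vector libraries, by the most in LOC_OE 1. Such non-overlap was common, since 45.3% of all genes tested had FPKM values that did not overlap between the groups. Means were 9.45 ± 0.286 and 11.2 ± 1.47 FPKM (SD, n = 3 each), a log2 fold change of 0.21 ± 0.104 (SE). The log2 fold change was −0.028 after rescaling to the same summed FPKM and 0.030 as a share of the reads on genes. Without LOC_OE 1 the NF2 mean exceeded Vector by 0.854 FPKM.

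**Figure D1:**
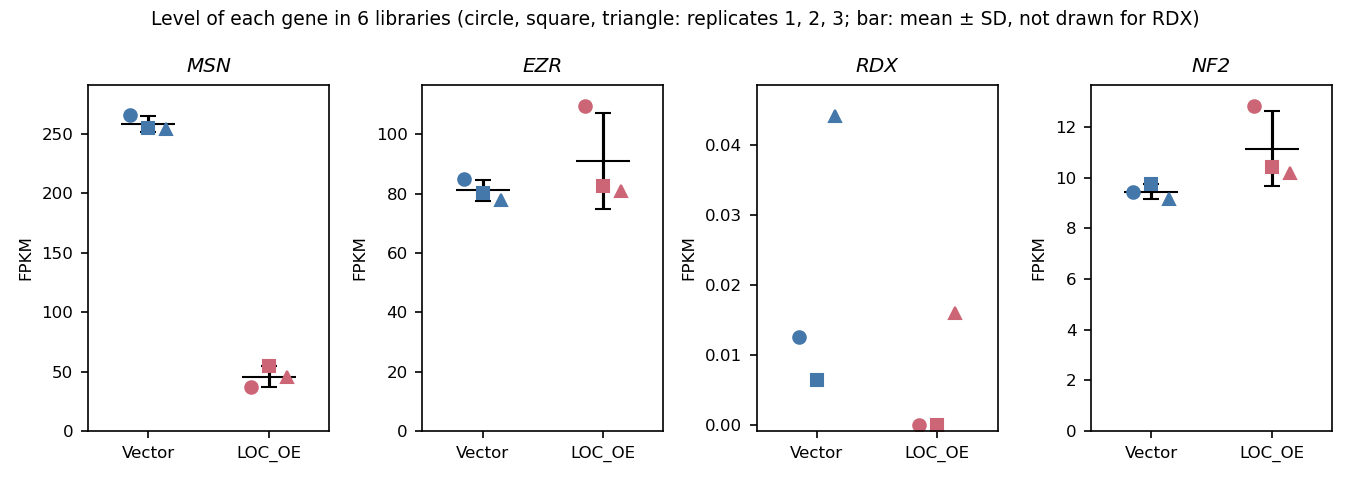
FPKM of MSN, EZR, RDX and NF2 in 3 Vector and 3 LOC_OE libraries, each panel with its own axis; points are libraries and bars the mean ± SD, which is left out for RDX because 2 of its libraries are listed at 0. MSN went from 258 to 45.7 FPKM, EZR overlapped between the groups, RDX never exceeded 0.0441 FPKM, and LOC_OE 1 was the highest library for EZR and NF2 and the lowest for MSN.

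The order of the levels changed with the fall in MSN. In Vector the order was MSN, EZR, NF2 and RDX, and no neighbours in it overlapped. In LOC_OE it was EZR, MSN, NF2 and RDX, and again no neighbours overlapped, the highest MSN library at 54.6 FPKM lying below the lowest EZR library at 80.9 FPKM. The ratio of MSN to EZR, which does not depend on the scaling of a library, was 3.13, 3.17 and 3.26 in Vector 1, 2 and 3 and 0.338, 0.660 and 0.562 in LOC_OE 1, 2 and 3. LOC_OE 1 had the lowest MSN together with the highest EZR.

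Summed over MSN, EZR and RDX, the ERM transcripts reached 351, 335 and 332 FPKM in Vector 1, 2 and 3, and 147, 137 and 126 FPKM in LOC_OE 1, 2 and 3. The sum in every LOC_OE library was below that in every Vector library. MSN, chosen for its decrease, made up most of the sum in Vector, so this separation was largely set by that choice. Means were 339 ± 10.4 and 137 ± 10.1 FPKM (SD, n = 3 each), so 40.3% of the control sum remained. MSN made up 76.1% ± 0.384 of the sum in Vector and 33.7% ± 7.53 in LOC_OE (SD, n = 3 each), while EZR made up 23.9% and 66.3%. The MSN mean fell by 212.5 FPKM. The EZR mean was 9.94 FPKM higher, equal to 4.68% of the MSN decrease, and RDX added nothing. To hold the sum at its control level, EZR would have had to reach 362% of its Vector mean. Merlin is not an ERM protein, and the NF2 mean was 1.70 FPKM higher, equal to 0.801% of the MSN decrease. At the transcript level, then, the other members did not make up for the decrease in MSN. Protein levels and phosphorylation were not analysed here.

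**Figure D2:**
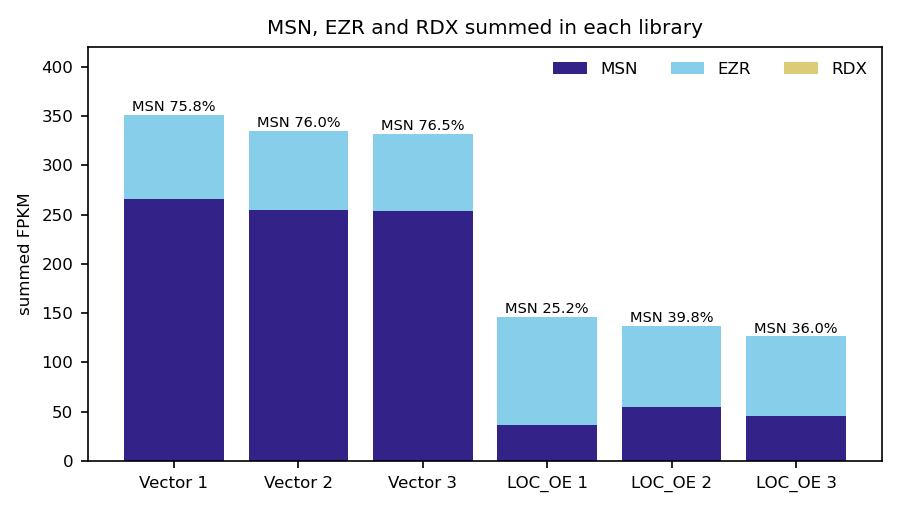
FPKM of MSN (dark), EZR (light) and RDX (too low to be seen) stacked for each library, with the MSN share of the sum above each bar. The sum was 332 to 351 FPKM in Vector and 126 to 147 FPKM in LOC_OE, and EZR took the larger part in each LOC_OE library.

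Copies and antisense genes of the members carried almost no reads. MSNP1, a processed pseudogene of MSN, was seen with 2 reads, all in the library Vector 1. EZR-AS1, an antisense gene that overlaps the start of EZR, had 1, 4 and 1 reads in Vector 1, 2 and 3, and none in LOC_OE. The pseudogenes RDXP1, RDXP2, RDXP3 and EZRP1 were at 0 reads in every library. MSNP1AS was not matched to an identifier and has no value. Whether reads were counted by strand is not given in the sources used here. Reads in any bases shared by EZR and EZR-AS1 therefore cannot be told apart. The same holds for RDX and ZC3H12C, which lies inside the span of RDX on the opposite strand. No 150-base window of EZR or RDX occurred in a transcript of another gene on either strand, so any shared stretch is shorter than that.

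Genes that work with the members were read from lists of partners, regulators and relatives, with limma fitted over all 16061 genes tested. A gene was called where its Benjamini-Hochberg adjusted p was under 0.05 and its level differed 1.5-fold or more. By this rule 4.63% of all genes tested were called higher in LOC_OE and 5.58% were called lower. At the same adjusted p and any fold change, 10.7% were higher and 9.74% were lower. Of the 110 list genes tested, 2 were called higher and 8 lower. After rescaling to the same summed FPKM, the medians of all lists were below 0, among them those of the kinase, merlin and other FERM lists at −0.14, −0.093 and −0.19, whose medians as deposited were above 0. For the lists of membrane partners, of kinases and of other linkers, in which none was called higher, 0 were called higher at an unadjusted p and 0 by limma voom on the recovered reads. Genes named below that pass the adjusted p alone, or neither threshold, were chosen after their values were seen. For the fit without LOC_OE 1, the share of all genes tested that passed the adjusted p is not given. The list counts from that fit therefore have no background beside them. Without Vector 2, 0 list genes were called higher and 4 lower. These 4 were 1 membrane partner, 1 gene of the merlin list and 2 other linkers.

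The membrane proteins and scaffolds that the FERM domain binds were mostly at levels close to control. Of 21 listed, 12 were tested, 2 were called lower and none was called higher, and their median log2 fold change was −0.12. ICAM1, an adhesion receptor for leukocyte integrins, had 42.2, 41.0 and 40.0 FPKM in Vector 1, 2 and 3 and 17.2, 18.00 and 20.5 FPKM in LOC_OE 1, 2 and 3. It fell by 1.11 on the log2 scale (SE 0.0897, limma adjusted p = 0.00307), and the groups did not overlap. ICAM2, a related receptor, fell from 0.954 to 0.229 FPKM (limma adjusted p = 0.0244), on 45 to 74 reads in each Vector library and 8 to 17 in each LOC_OE library. CD44, the hyaluronan receptor, had 17.3 ± 0.332 FPKM in Vector and 12.3 ± 2.64 FPKM in LOC_OE (SD, n = 3 each). Its log2 fold change was −0.48 over all libraries (limma adjusted p = 0.0723) and −0.31 without LOC_OE 1 (limma adjusted p = 0.00513). With any other library left out, CD44 did not pass, and its limma adjusted p reached 0.186. NHERF1, the scaffold that joins ERM proteins to transporters, had 40.9, 39.2 and 37.9 FPKM in Vector and 45.8, 27.02 and 26.6 FPKM in LOC_OE 1, 2 and 3. LOC_OE 1 was on the opposite side of Vector from LOC_OE 2 and 3 for this gene. Without LOC_OE 1, 5 of the 12 genes were lower at an adjusted p under 0.05, compared with 2 in all libraries. Of the others, SPN, PDPN, L1CAM, VCAM1 and ICAM3 did not pass the filter on low values.

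The kinases, phosphatases and other regulators that open, close or act with ERM proteins split in direction. Of 23 listed, 21 were tested, 2 were called lower and none was called higher. A further 3 were higher and 3 lower at the adjusted p alone, and the list median was 0.10. Without LOC_OE 1, 3 were called lower, and 4 were higher and 8 lower at the adjusted p, compared with 3 and 5 in all libraries. PTP4A3, a membrane-associated phosphatase, fell from 6.65 to 3.03 FPKM (limma adjusted p = 0.0392), and LOC_OE 1 was the lowest library at 1.56 FPKM. PTK2, the focal adhesion kinase, was higher by 0.52 on the log2 scale (limma adjusted p = 0.00893). The kinase STK10, also known as LOK, which phosphorylates the ERM tail, was lower, from 10.0 to 7.37 FPKM (limma adjusted p = 0.0146). Its relative SLK had 15.2 ± 1.95 and 18.1 ± 0.957 FPKM (SD, n = 3 each; limma adjusted p = 0.166). PRKCA, a protein kinase C, and PIP5K1C, which makes phosphatidylinositol 4,5-bisphosphate, were lower, with log2 fold changes of −0.47 and −0.46 (limma adjusted p = 0.0273 and 0.0186). In the 6 fits with 1 library left out, STK10, PRKCA and PIP5K1C passed the adjusted p in 2, 1 and 2.

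The partners of merlin and the Hippo pathway held calls in both directions. All 25 listed genes were tested, 1 was called higher and 2 lower, and 7 were higher and 3 lower at the adjusted p. The median was 0.16. AMOTL1, an angiomotin that binds merlin and YAP, had 1.44, 1.29 and 1.31 FPKM in Vector 1, 2 and 3 and 0.156, 0.168 and 0.170 FPKM in LOC_OE 1, 2 and 3. It fell by 1.01 on the log2 scale (SE 0.106, limma adjusted p = 0.00532), on 241 to 271 reads per Vector library and 25 to 27 per LOC_OE library. AMOT, angiomotin itself, fell from 1.60 to 0.423 FPKM (limma adjusted p = 0.00816), while the third relative, AMOTL2, stood at 11.6 and 10.8 FPKM. The pseudocount of 1 makes these log2 values smaller than the ratios of FPKM. TEAD2, a DNA-binding partner of YAP, had 4.45, 4.25 and 4.08 FPKM in Vector 1, 2 and 3 and 9.64, 6.24 and 6.28 FPKM in LOC_OE 1, 2 and 3. It rose by 0.65 on the log2 scale (SE 0.162, limma adjusted p = 0.0368), and by 0.47 without LOC_OE 1, below the fold threshold. FRMD6, a FERM protein that activates the Hippo kinases, rose from 13.5 to 20.6 FPKM (limma adjusted p = 0.00872), under the fold threshold on the log2(FPKM + 1) scale. MOB1A, WWTR1 (TAZ), TEAD4, DCAF1 and PAK2 were also higher at the adjusted p alone, by 0.33 to 0.53 on the log2 scale. Each passed the adjusted p in only 1 or 2 of the 6 fits with 1 library left out. After rescaling to the same summed FPKM their log2 fold changes were 0.093 to 0.28. LATS2, a Hippo kinase, was lower, from 11.5 to 8.57 FPKM (limma adjusted p = 0.0253), and passed the adjusted p in 2 of those 6 fits. YAP1 had 24.2 ± 1.35 and 27.2 ± 1.62 FPKM (SD, n = 3 each; limma adjusted p = 0.229). Without LOC_OE 1, 13 genes of this list were higher at the adjusted p, compared with 7 in all libraries. The share of all genes tested in that fit is not given, so the 13 cannot be read as particular to this list.

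The target genes of YAP and TAZ that were tested did not move one way. Of 22 listed, 15 were tested and 1 was called, while 2 were higher and 2 lower at the adjusted p, and the median was −0.16. CCN1, a matricellular protein listed in the annotation as CYR61, had 93.2, 88.7 and 88.0 FPKM in Vector 1, 2 and 3 and 143, 140 and 131 FPKM in LOC_OE 1, 2 and 3. It rose by 0.61 on the log2 scale (SE 0.0816, limma adjusted p = 0.00799). Under quantile normalization its log2 fold change was 0.27 and the call was lost (limma adjusted p = 0.0685), as it was without Vector 2 or Vector 3 (limma adjusted p = 0.0598 and 0.0539). The receptor kinase AXL was higher, from 128 to 157 FPKM (limma adjusted p = 0.0399), and its log2 fold change of 0.30 became −0.031 under quantile normalization. CCDC80 and LATS2 were lower at the adjusted p, which they passed in 1 and 2 of the 6 fits with 1 library left out. CCN2 and ANKRD1, which are among the targets most often used as readouts, did not pass the filter on low values. CCN2 had 0.365, 0.599 and 0.506 FPKM in Vector 1, 2 and 3 and 0.0534, 0.0267 and 0.175 FPKM in LOC_OE 1, 2 and 3. Its reads were 64 in all in Vector and 9 in LOC_OE, and those of ANKRD1 were 21 and 4. NUAK2, which did not pass the filter either, had 50 and 1. These 3 were lower in LOC_OE without overlap, on few reads, and were not tested. IGFBP3, FOXF2, TGFB2 and RBMS3, also not tested, had 0 to 3 reads per library. The list median was 0.017 without LOC_OE 1.

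None of the other listed genes with a FERM domain was called by limma on FPKM, and FERM genes outside the list were not examined as a group. At an unadjusted p and the same fold 0 would be called higher and 1 lower, and limma voom on the recovered reads called 2 higher and 1 lower. Without LOC_OE 1, limma on FPKM called 1 gene, FRMD6, with a log2 fold change of 0.62 (adjusted p = 0.00111), and 5 genes were higher and 4 lower at the adjusted p. Of 31 listed, 24 were tested, 3 were higher and 2 lower at the adjusted p in all libraries, and the median was 0.037, close to the 0.019 of all genes tested. FRMD6 has been described above. FERMT1, encoding kindlin-1, which activates integrins, and MYO10, the myosin of filopodia, rose by 0.54 and 0.50 on the log2 scale (limma adjusted p = 0.0109 and 0.0100). EPB41L1 and MYLIP, an E3 ligase with a FERM domain, were lower, with log2 fold changes of −0.31 and −0.45 (limma adjusted p = 0.0281 and 0.0181). These 2 passed the adjusted p in 1 and 2 of the 6 fits with 1 library left out.

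Among other proteins that connect the membrane with actin, MARCKS and MYO1D fell. Of 23 listed, 18 were tested, 2 were called lower and none was called higher, and the median was −0.060. Without LOC_OE 1, 2 genes were higher and 5 lower at the adjusted p, compared with 0 and 2 in all libraries. MARCKS, a protein kinase C substrate that binds actin and phosphatidylinositol 4,5-bisphosphate, had 46.3, 41.7 and 43.9 FPKM in Vector 1, 2 and 3 and 10.0, 14.8 and 14.8 FPKM in LOC_OE 1, 2 and 3. It fell by 1.68 on the log2 scale (SE 0.156, limma adjusted p = 0.00397). MYO1D, a single-headed membrane myosin, had 3.32, 3.26 and 3.63 FPKM in Vector 1, 2 and 3 and 0.809, 0.830 and 1.06 FPKM in LOC_OE 1, 2 and 3, and fell by 1.22 on the log2 scale (SE 0.0978, limma adjusted p = 0.00307). MARCKSL1, the relative of MARCKS, had 96.8 ± 5.42 FPKM in Vector and 144 ± 30.7 FPKM in LOC_OE (SD, n = 3 each; limma adjusted p = 0.0524). FLNA, a filamin that crosslinks cortical actin, had 235 ± 5.46 and 200 ± 3.21 FPKM (SD, n = 3 each; limma adjusted p = 0.0903).

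**Figure D3:**
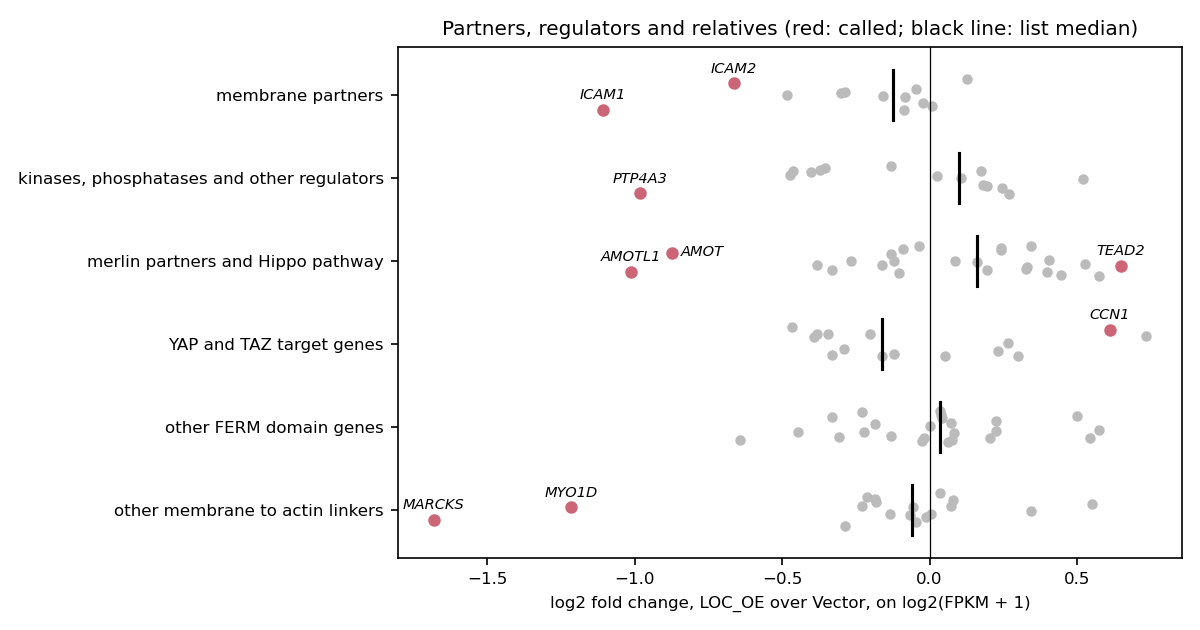
Log2 fold change of LOC_OE over Vector on log2(FPKM + 1) for the tested genes of each list, apart from genes not reported here; each point is a gene, red points are called genes and black lines are list medians. The medians lay between −0.16 and 0.16, and the decrease of MARCKS, −1.68, was smaller than that of MSN, −2.49.

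**Figure D4:**
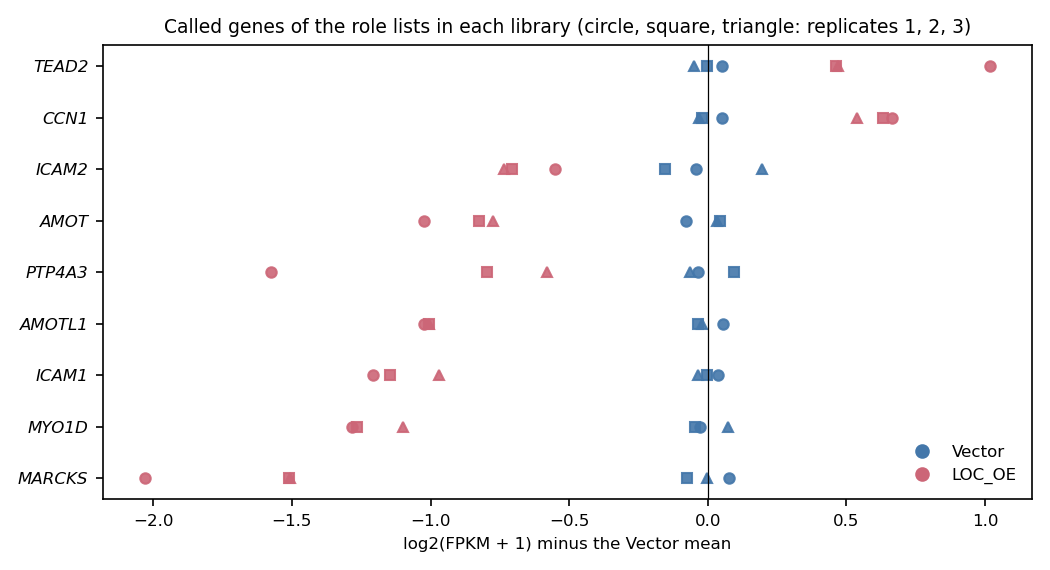
The called genes of the lists that are named in the text, in each library, as log2(FPKM + 1) minus the Vector mean of the gene. Vector (blue) and LOC_OE (red) did not overlap for any of these genes, which follows largely from drawing only called genes. Over all genes tested, 45.3% did not overlap. LOC_OE 1 (circles) was the LOC_OE library farthest from Vector for each gene drawn apart from ICAM2.

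The genes around each member did not share the size of the MSN decrease. LAS1L, a ribosome biogenesis factor whose start lies 0.0536 Mb from that of MSN, had 15.4 ± 0.767 FPKM in Vector and 15.8 ± 2.87 FPKM in LOC_OE (SD, n = 3 each), a log2 fold change of 0.021. Among the 10 nearest tested protein-coding genes of MSN the median log2 fold change was −0.14, and 8 were below 0. For the 10 nearest to EZR, RDX and NF2 the medians were −0.0050, 0.11 and 0.22, with 5, 8 and 7 genes above 0. NF2 itself was at 0.21. The 1 called gene near MSN was EFNB1, an ephrin ligand whose start lies 3.24 Mb away. It had 17.0, 16.5 and 15.8 FPKM in Vector 1, 2 and 3 and 9.80, 7.38 and 7.06 FPKM in LOC_OE 1, 2 and 3, and fell by 0.95 on the log2 scale (SE 0.126, limma adjusted p = 0.00791). None of the 10 genes nearest to EZR was called by limma on FPKM, and none passed the adjusted p, while 2 had an unadjusted p under 0.05 and limma voom called 0. Among those nearest to RDX, KDELC2 rose from 8.05 to 13.6 FPKM (limma adjusted p = 0.00536), and ZC3H12C, the gene inside RDX, was higher at the adjusted p alone, from 2.25 to 3.67 FPKM (limma adjusted p = 0.0345). Among those nearest to NF2, RHBDD3 rose from 7.41 to 12.8 FPKM (limma adjusted p = 0.00835), and THOC5, whose start lies within 0.0483 Mb of that of NF2, was higher at the adjusted p alone, from 7.83 to 11.5 FPKM (limma adjusted p = 0.0120).

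**Figure D5:**
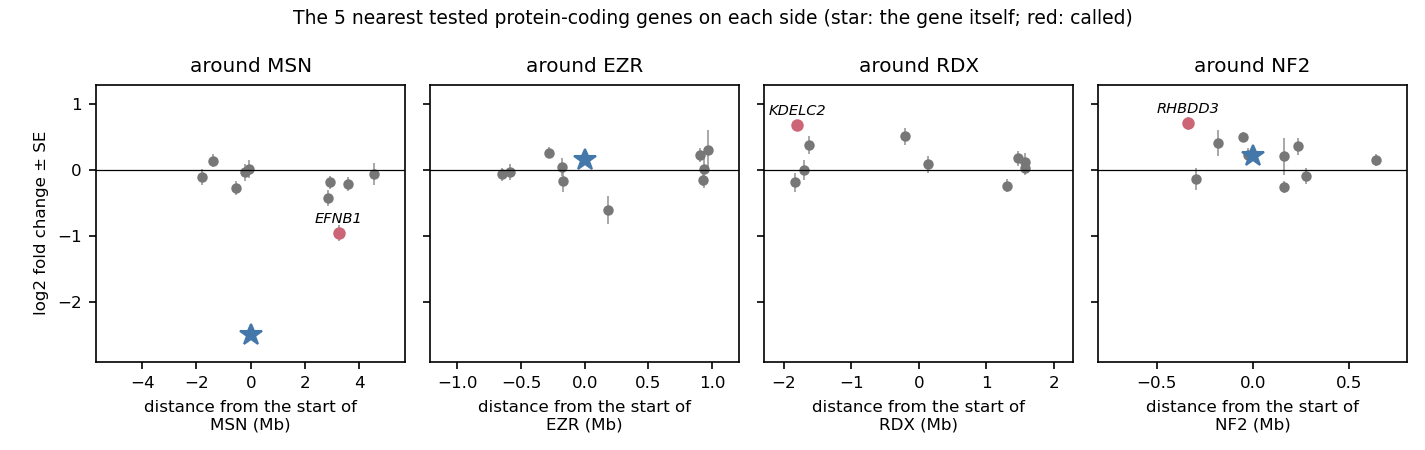
Log2 fold change ± SE of the 5 nearest tested protein-coding genes on each side of MSN, EZR, RDX and NF2 against the distance between start sites in Mb; stars are the members themselves (RDX was not tested) and red points are called genes. MSN lay at −2.49, and the lowest of its neighbours, EFNB1, at −0.95.

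The genes whose pattern over the 6 libraries was most like that of a member were taken by Euclidean distance in log2(FPKM + 1) minus the Vector mean, over 13215 other genes whose FPKM averaged 1 or more. This is a description, since MSN was chosen for its pattern. Nearest to MSN were the non-coding genes AC023157.3, AC009549.1 and AC117402.1 at distances of 0.330, 0.397 and 0.554, the pseudogene FO393413.1 at 0.444, and EBI3, a cytokine subunit, at 0.694. AC009549.1 had 41.8, 36.7 and 35.8 FPKM in Vector 1, 2 and 3 and 3.48, 7.91 and 6.58 FPKM in LOC_OE 1, 2 and 3. FO393413.1 had a mean of 4.49 FPKM in Vector and was listed at 0 in every LOC_OE library. The pseudocount of 1 holds its log2 difference at −2.45, near that of MSN, of which 17.7% remained. EBI3 was the only protein-coding gene among the 5, with 14.7, 14.8 and 16.0 FPKM in Vector 1, 2 and 3 and 1.17, 2.14 and 3.55 FPKM in LOC_OE 1, 2 and 3. CYB561 and LAMP1, a lysosomal membrane protein, lay at 0.0425 and 0.0478 from EZR. TTLL4 and PROSER3 lay at 0.0492 and 0.0508 from NF2. For RDX the pseudocount of 1 makes the pattern flat at 0 to 7 reads, whatever the gene did, so its nearest genes, TMEM234 and ANO10 at 0.0466 and 0.0516, say nothing about RDX.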

How the data were processed

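RNA of 3 Vector and 3 LOC_OE libraries of RKO cells was sequenced as paired-end reads of 150 bases. The authors deposited FPKM per gene, made with HISAT2 2.0.4 and StringTie 1.3.0 on hg38 per the submitters' processing notes; how strand was treated is not given in the sources used here. All 58735 identifiers matched GENCODE 29, and 27612 genes were at 0 in every library. Groups came from the labels. The members and lists were chosen with earlier results of these data known.

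FPKM was transformed as log2(FPKM + 1), and genes with at least 0.5 FPKM in at least 3 libraries were tested with limma 3.58.1 in R 4.3.3, with a variance trend and group as the only term. Calls needed a Benjamini-Hochberg adjusted p under 0.05 and a 1.5-fold difference. The script was tested on simulated data. Reads were recovered from FPKM and exon length and used in limma voom as an alternative. Other alternatives were a pseudocount of 0.1, other filters, other scalings, the replicate block and leaving out each library. The share of reads on genes was added after the data were seen. Depth limits low genes, and 3 reads set the floor for a count of 0.

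Genes named were the members, their copies, the 3 largest called increases and decreases of each list, every called gene among the 5 nearest on each side of a member, and the genes most like each member. Transcripts were the APPRIS principal ones with the longest coding sequence, and coding sequences were aligned with Biopython 1.88. Some genes of the lists entered the counts but are not reported here by name. Figures were drawn with matplotlib 3.10.9.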

Additional observations from a re-analysis of the deposited data

How the results depend on the processing

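Rescaling each library to the same summed FPKM left 261 genes called higher (743 as deposited) and 1786 called lower (896), 0 and 16 of the list genes (2 and 8), and 0 genes called higher among the nearest (2). With limma voom on recovered reads, 1705 genes were called lower, as were 2 of the nearest genes, and 4 list genes were called higher. Without the filter on low FPKM, and under quantile normalization, 1 list gene was called higher. The log2 fold change of MSN was −2.76 under quantile normalization, −2.75 after rescaling and −2.69 as a share of the reads on genes. That of EZR reversed to −0.15, −0.11 and −0.044, and that of NF2 was −0.028 after rescaling and 0.030 as a share of the reads. The summed ERM log2 ratio was −1.60 and −1.57 under quantile normalization and rescaling, beside −1.31. The MSN share of the sum stayed within its replicate spread.

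With 1 library left out, 144 to 747 genes were called higher and 227 to 938 lower, in list genes 0 to 5 and 4 to 9, and among the nearest genes 1 to 3 and 0 to 1. The lowest counts over all genes, 144 and 227, came without Vector 2; without Vector 1 they were 305 and 367, and without Vector 3 they were 199 and 275. Log2 fold changes ranged from −2.63 to −2.35 for MSN, from 0.013 to 0.23 for EZR and from 0.11 to 0.27 for NF2, the lowest for EZR and NF2 without LOC_OE 1. The summed ERM log2 ratio ranged from −1.36 to −1.26.

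Of the named genes, ICAM1, MARCKS, MYO1D and AMOTL1 kept their calls in every setting run for them, with adjusted p of at most 0.0340, 0.0351, 0.0340 and 0.0433. ICAM2, PTP4A3 and TEAD2 lost theirs most often, with adjusted p up to 0.0892, 0.134 and 0.122. CCN1, TEAD2, KDELC2 and RHBDD3, the list and nearest genes called higher, all fell below the fold threshold after rescaling. Their log2 fold changes were then 0.35, 0.43, 0.45 and 0.48.

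With the replicate number as a block, 696 genes were called higher and 739 lower, and ICAM2 and PTP4A3 were no longer called (adjusted p = 0.0600 and 0.0519). Same-numbered libraries shared little, with deviation correlations of 0.111, −0.0338 and 0.116, so the numbers were not treated as pairs. The causes of these changes were not tested.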
